A study of Mus musculus with 24 samples.

Results

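Collagens, other proteins of the extracellular matrix, ADAMTS proteases and integrins were followed in E18.5 mouse kidneys in which Wt1 had been deleted with 1 of 3 Cre drivers. The genes were taken by symbol from the array table (collagens except Col4a1 to Col4a5, integrin chains, fibrillin, elastin, Postn, Sparc, Tnc, thrombospondins and ADAMTS proteases), which gave 82 genes. Of these, 52 were tested because they were detected (detection p under 0.01) on at least 3 of 24 arrays, 22 were detected on no array and 8 on 1 or 2. Just inside that limit was Col25a1, detected on 3 arrays, and just outside were Col7a1 and Col11a2, on 2 each. For 9 of the 82 genes, Col7a1 among them, arrays without detection held intensities well above background, as described with the processing. The tested genes are part of 10371 tested genes among 17951 in the table, and 30 of the 82 were detected on every array.

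RNA of 3 samples in each of 8 groups, each labelled as the whole kidney of an embryo, was measured on Illumina bead arrays, 1 colour and 1 array per sample. The mutants were Nes-Cre Wt1co/co, Wnt4+/CreGFP Wt1co/co and Pax8+/Cre Wt1co/co, where co is a conditional Wt1 allele that Cre removes. Their controls on the same set of arrays were Wt1co/co kidneys without Cre for the Nes-Cre mutant, and Wnt4+/CreGFP and Pax8+/Cre kidneys, labelled as wild type for Wt1, for the others. The Nes-Cre mutant and its control thus share the conditional allele and differ by Cre. The other mutants share Cre with their controls and differ from them by the conditional allele. Effects of Cre or of the allele itself can enter these changes, and differences between them, unequally. Wild-type kidneys and kidneys carrying Nes-Cre alone formed the remaining set. The labels give C57BL/6 as the strain and the methods a mixed background backcrossed to it to varying degrees. Nes-Cre is a transgene driven by the nestin promoter, active in the kidney mesenchyme but not in the ureteric bud, and some nephrons escape it. The other drivers sit in the endogenous Wnt4 and Pax8 genes, so that mutants and controls alike have 1 copy of the driver gene left, and Pax8+/Cre is also active in the ureteric bud. Wt1 itself was not analysed here. In whole kidneys, fewer cells of a type and less RNA per cell cannot be told apart.

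Collagens are the main structural proteins of connective tissue. Fibrillar collagens carry tension, fibril-associated collagens coat the fibrils, collagen VI forms beaded filaments, and a small class of collagens stays anchored in the cell membrane. Integrins are receptors made of an alpha and a beta chain that bind such proteins, and ADAMTS proteases process collagen precursors and proteoglycans. In the developing kidney, nephrons form from mesenchyme that is turned into epithelium on a new basement membrane, while the stroma between them makes most of the fibrillar matrix.

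Nes-Cre Wt1co/co replicate 1 stood apart from its group. It correlated with replicates 2 and 3 at r = 0.894 and 0.897 across genes, while those 2 correlated at 0.987 and the mean correlation of every array outside this group with its mates was 0.986 to 0.995. The summed intensity of 7 smooth muscle markers was 80479 in it against 6823 and 8467 in its mates, that of 4 striated muscle markers 35304 against 1088 and 1137, and that of 4 urothelium markers 14898 against 731 and 1436. The methods leave out 1 Nes-Cre Wt1co/co sample without saying which, so all 3 were used and each result was also computed without replicate 1. Background intensity was 48.1 to 70.0 on 3 of the 4 sets of arrays and 152 to 182 on the set that holds Nes-Cre and wild-type kidneys. Of the kidney markers, 5 of 6 podocyte genes and 6 of 7 proximal tubule genes were lower in the Nes-Cre mutant, as were 14.1% of all genes tested.

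Promoters are shown for 3 of the genes whose changes are described below, the membrane collagens Col23a1 and Col17a1, which were higher in mutants, and the integrin gene Itgb5, which was lower in 1 mutant. The sequences are the 250 bases before the start of transcription from RefSeq (build GRCm38.p6), which had a promoter for 37 of the 52 tested genes. Capitals mark matches on either strand to a GC box (GGGCGG) or a TATA box (TATAAA). Neither an AP-1 site (TGANTCA) nor the WT1/EGR-type letters GCGGGGGCG occurred in these windows.
Col23a1, chr11:51289670-51289919, plus strand: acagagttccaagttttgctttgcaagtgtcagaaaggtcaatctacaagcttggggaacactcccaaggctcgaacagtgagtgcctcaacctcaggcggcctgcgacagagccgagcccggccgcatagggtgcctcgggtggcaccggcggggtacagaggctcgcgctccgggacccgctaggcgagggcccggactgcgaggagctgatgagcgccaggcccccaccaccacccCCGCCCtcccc
Col17a1, chr19:47692043-47692292, minus strand: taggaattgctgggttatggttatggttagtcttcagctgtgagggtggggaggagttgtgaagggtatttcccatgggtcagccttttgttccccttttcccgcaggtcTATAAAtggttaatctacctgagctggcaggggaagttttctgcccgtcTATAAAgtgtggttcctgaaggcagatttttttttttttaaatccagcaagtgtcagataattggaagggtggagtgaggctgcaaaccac
Itgb5, chr16:33829415-33829664, plus strand: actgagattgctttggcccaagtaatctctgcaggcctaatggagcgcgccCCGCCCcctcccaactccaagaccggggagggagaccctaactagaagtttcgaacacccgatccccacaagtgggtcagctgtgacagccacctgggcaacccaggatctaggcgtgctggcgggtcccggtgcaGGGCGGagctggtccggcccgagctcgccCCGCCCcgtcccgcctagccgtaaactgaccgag
Col17a1 held 2 TATA boxes, which began 140 and 91 bases before the start, and no GC box. Col23a1 held 1 GC box and Itgb5 held 3, and neither held a TATA box. Among 32851 promoters of the same length, 32.7% held a GC box, 12.4% a TATA box, 6.75% the AP-1 letters and 2.57% the WT1/EGR-type letters. Of the 37 tested genes with a promoter, 22 held a GC box, 5 a TATA box, 1 the AP-1 letters and 1 the WT1/EGR-type letters. A gene was counted if any of its starts matched, while the percentages are per promoter, so the counts and percentages are not like measures. The matches describe the letters and do not show that a factor binds there.

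In the Nes-Cre mutant, 15 of the 52 genes were higher and 4 lower than in Wt1co/co kidneys (limma, adjusted p under 0.05), where 11.7% of all genes tested were called higher and 14.1% lower. Without replicate 1 the counts were 13 higher, beside 13.6% of all genes, and 7 lower, beside 13.3%, and 17 genes were called both ways. In a fit of only the 6 arrays compared, limma called none of the 52 genes and 0.0675% of all genes (9 higher and 3 lower at an unadjusted p under 0.05). The main fit pools the spread of each gene over all groups, and the median SD of the 52 genes was 0.57 in Nes-Cre Wt1co/co kidneys and 0.13 to 0.18 elsewhere. Its standard errors and p-values for the Nes-Cre mutant are therefore too small for genes on which replicate 1 stood apart. In the Wnt4+/CreGFP mutant 5 genes were higher and none was lower at an adjusted p under 0.05, beside 7.05% and 8.5% of all genes. With the background inferred by neqc, 6 were higher and 1 lower, where 17.6% of all genes were called in either direction. At an unadjusted p under 0.05, 9 were higher and 1 lower. The share of all genes at an unadjusted p is not given, here or elsewhere, so counts at that limit have no like measure beside them. In the Pax8+/Cre mutant 4 were higher and 1 lower, beside 1.76% and 3.01% of all genes. The median log2 change of the 52 genes was 0.32 in the Nes-Cre mutant and 0.08 without replicate 1, 0.12 in the Wnt4+/CreGFP mutant and -0.004 in the Pax8+/Cre mutant, and that of all genes was -0.005, 0.007, 0.06 and 0.04. All groups share 1 estimate of the spread for each gene, so removing replicate 1 lowered the median standard error of the 52 genes from 0.216 to 0.145 in the other mutants, where 12 genes were then higher and 3 lower (Wnt4+/CreGFP, beside 14% and 12.6% of all genes) and 6 higher and 2 lower (Pax8+/Cre, beside 5.31% and 6.43%). With all arrays, mutants and controls did not overlap in either direction for 20 of the 52 genes in the Nes-Cre comparison (beside 33.9% of all genes), 19 in the Wnt4+/CreGFP comparison (beside 44.1%) and 17 in the Pax8+/Cre comparison (beside 32.7%). In all, 21 of the 52 genes were called in at least 1 mutant with all arrays and 31 in none.

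**Figure D1:**
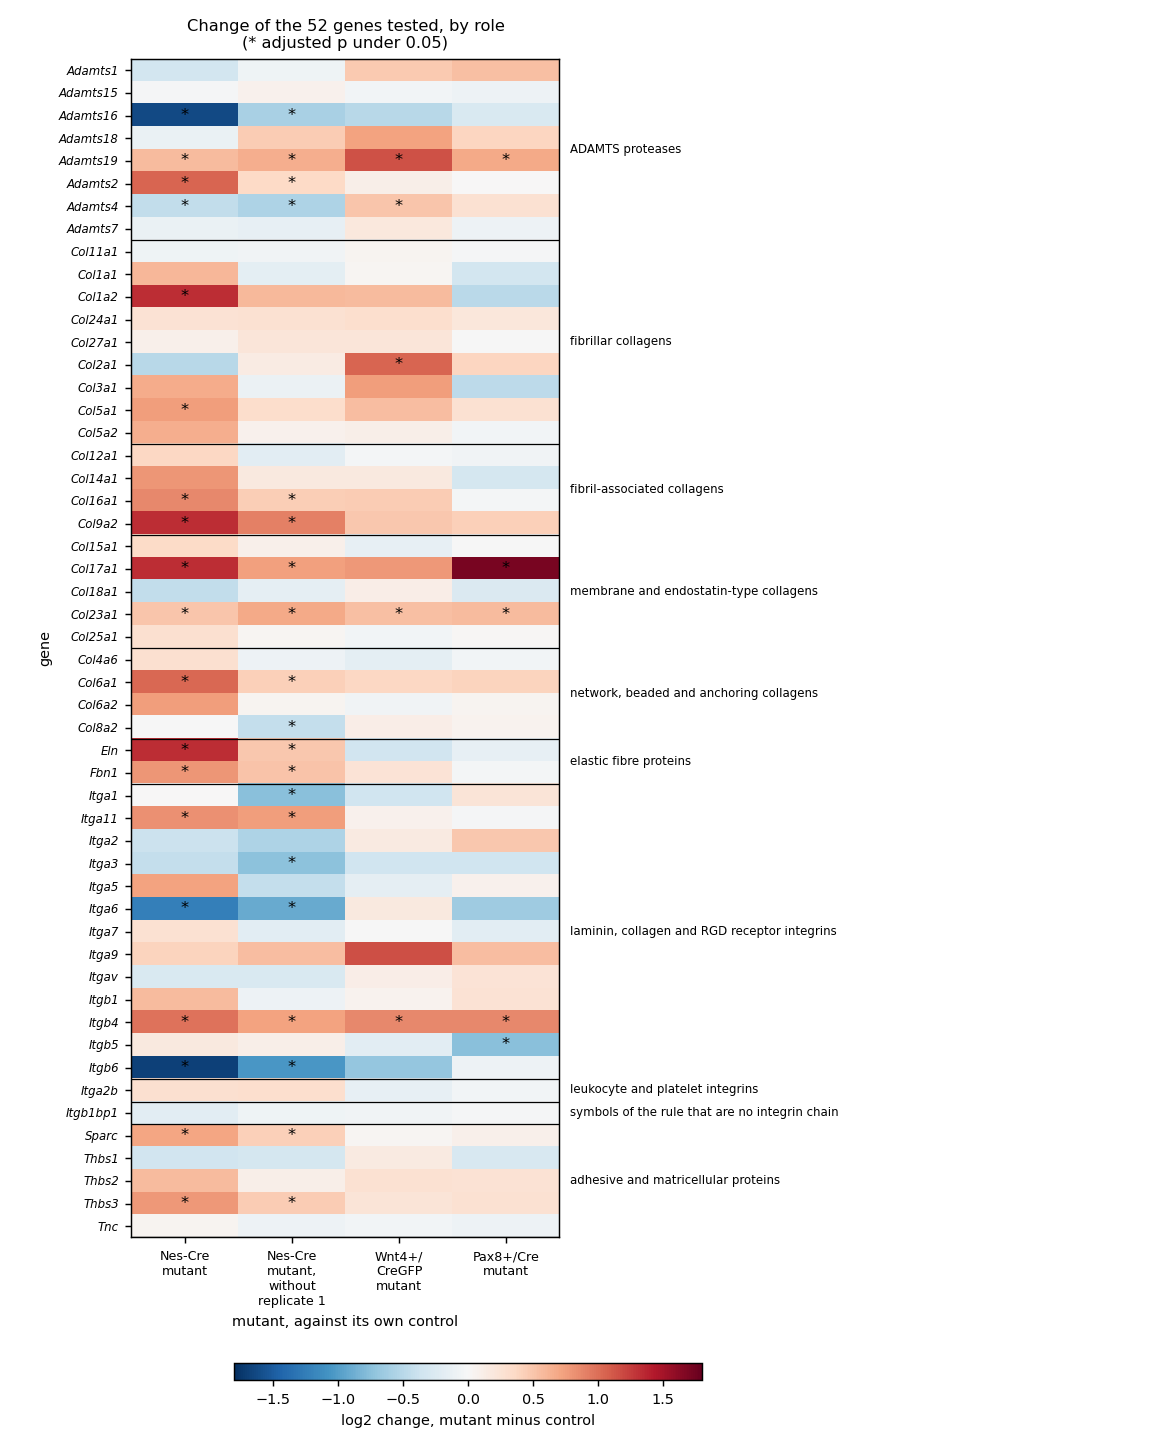
Heat map of the log2 change (colour, mutant minus control) of the 52 genes tested, in rows by role, in the Nes-Cre mutant with and without replicate 1 and in the Pax8+/Cre and Wnt4+/CreGFP mutants with all arrays, an asterisk marking an adjusted p under 0.05. Itgb4, Col23a1 and Adamts19 carry an asterisk in every column, and most other asterisks are in the columns of the Nes-Cre mutant.

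Itgb4, Col23a1 and Adamts19 were higher in all 3 mutants, as were 0.636% of all genes tested, and no member was lower in all 3, as were 1.84%. With ratio values deposited by the authors, all 3 genes lost their call in the Wnt4+/CreGFP mutant, and Col23a1 and Adamts19 also in the Nes-Cre mutant. Adamts19 lost its Nes-Cre call with neqc as well. In the Pax8+/Cre mutant all 3 kept their call with the ratio values and with neqc. Itgb4 encodes the integrin beta 4 chain, which pairs with alpha 6 and anchors epithelial cells to laminin in hemidesmosomes. Its log2 intensities were 8.75, 8.05 and 7.91 in the Nes-Cre mutant against 7.11, 7.39 and 7.25 in Wt1co/co kidneys. They were 8.24, 8.04 and 8.09 against 7.12, 7.46 and 7.20 in the Wnt4+/CreGFP mutant, and in the Pax8+/Cre mutant 8.27, 8.15 and 8.22 against 7.24, 7.55 and 7.27. Every mutant array lay above every control array of its set, and no control array exceeded 7.58, those of wild-type and Nes-Cre kidneys included. Itgb4 rose 1.98-fold, 1.82-fold and 1.82-fold (log2 changes 0.98 ± 0.17, 0.87 ± 0.17 and 0.86 ± 0.17, standard error, n = 3 per group, limma adjusted p = 0.000421, 0.00141 and 0.00374). Without replicate 1 its change in the Nes-Cre mutant was 0.73, and it remained called in each mutant when any 1 of the 6 arrays compared was left out.

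Col23a1 encodes a transmembrane collagen. In the Nes-Cre mutant its arrays read 7.89, 8.60 and 8.24 on the log2 scale against 7.77, 7.93 and 7.52. They read 8.65, 8.47 and 8.49 against 8.01, 7.98 and 8.01 in the Wnt4+/CreGFP mutant, and in the Pax8+/Cre mutant 8.40, 8.39 and 8.71 against 8.00, 7.89 and 7.91. The groups overlapped in the Nes-Cre comparison through mutant replicate 1 and did not overlap in the other comparisons. The log2 changes were 0.51 ± 0.14, 0.54 ± 0.14 and 0.57 ± 0.14 (standard error, adjusted p = 0.0143, 0.0140 and 0.0243), and that of the Nes-Cre mutant was 0.68 without replicate 1. Against kidneys carrying Nes-Cre alone, the control named in the methods, Nes-Cre Wt1co/co kidneys had a change of 0.36 with all arrays, which was not called, and of 0.53 without replicate 1, which was. The call was lost without Wt1co/co replicate 3 (0.40) or Nes-Cre Wt1co/co replicate 2 (0.33), without Wnt4+/CreGFP Wt1co/co replicate 1 (0.48), and without Pax8+/Cre Wt1co/co replicate 3 (0.46) or any 1 of its controls (0.55 to 0.60).

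Adamts19 encodes a secreted protease of the ADAMTS family. Its log2 intensities were 7.35, 7.78 and 7.39 in the Nes-Cre mutant against 6.79, 7.09 and 6.91, then 7.76, 7.56 and 7.73 against 6.57, 6.44 and 6.59 in the Wnt4+/CreGFP mutant, and 8.25, 7.80 and 7.63 against 7.22, 7.30 and 7.14 in the Pax8+/Cre mutant. All mutant arrays lay above their controls. It rose by 0.58 ± 0.16, 1.15 ± 0.16 and 0.68 ± 0.16 (standard error, adjusted p = 0.0138, 6.25e-05 and 0.0173). The call was lost in the Nes-Cre mutant without Wt1co/co replicate 1 (0.50) or Nes-Cre Wt1co/co replicate 2 (0.44), and in the Pax8+/Cre mutant without its replicate 1 (0.49) or control replicate 1 (0.68) or 3 (0.64).

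**Figure D2:**
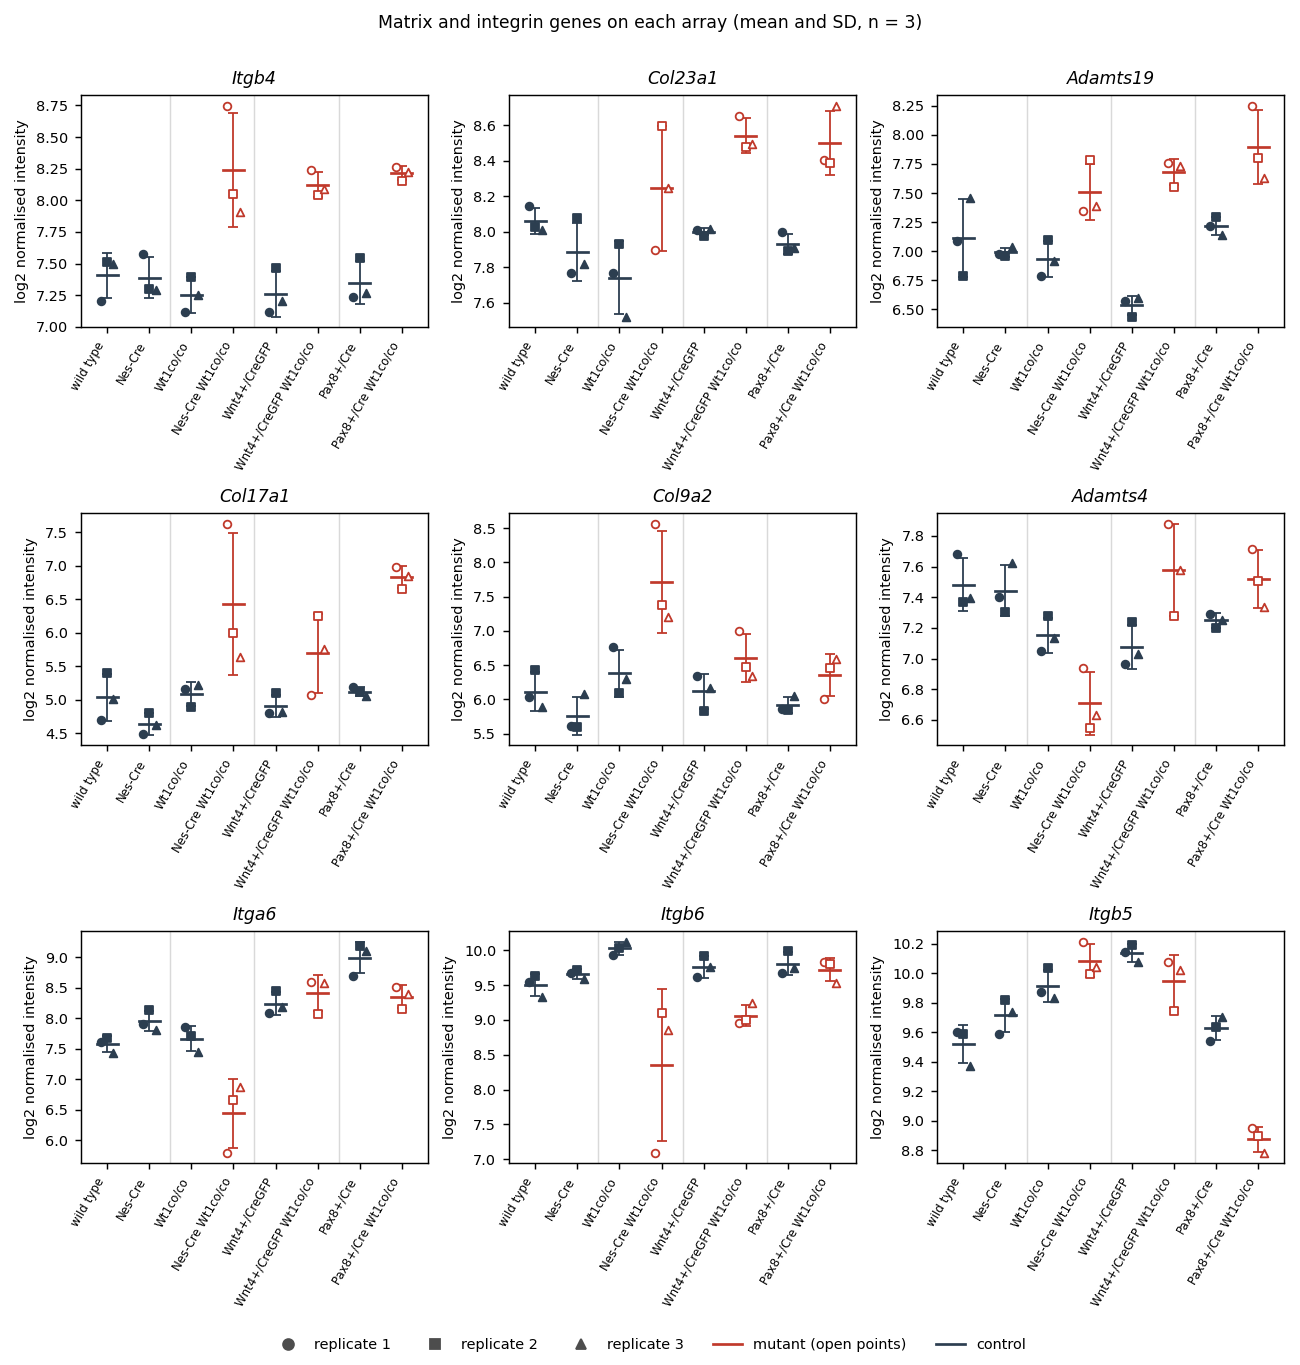
Log2 normalised intensity (vertical axis) of 9 genes on each of the 24 arrays, by group (horizontal axis), with mutants as open red points and controls as filled dark points, the point shape giving the replicate and the bars the mean and SD (n = 3). Itgb4 lies above its controls on every mutant array, Itga6 and Itgb6 have their lowest means in the Nes-Cre mutant, and Itgb5 is lowest in the Pax8+/Cre mutant, at 8.78 to 8.95.

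Of the 5 tested membrane and endostatin-type collagens, 2 were higher in the Nes-Cre mutant (beside 11.7% of all genes), 1 in the Wnt4+/CreGFP mutant (beside 7.05%) and 2 in the Pax8+/Cre mutant (beside 1.76%), and none was lower. Beside Col23a1 the gene was Col17a1, a transmembrane collagen of hemidesmosomes. Its largest change was in the Pax8+/Cre mutant, where the arrays read 6.98, 6.66 and 6.86 against 5.19, 5.12 and 5.07 on the log2 scale. The Nes-Cre mutant read 7.63, 6.00 and 5.65 against 5.16, 4.89 and 5.23, and the Wnt4+/CreGFP mutant 5.07, 6.25 and 5.76 against 4.81, 5.11 and 4.81. The groups overlapped only in the Wnt4+/CreGFP comparison, through mutant replicate 1. Col17a1 rose 3.27-fold in the Pax8+/Cre mutant (log2 change 1.71 ± 0.35, adjusted p = 0.00613) and 2.52-fold in the Nes-Cre mutant (1.33 ± 0.35, adjusted p = 0.00979), where the change was 0.74 without replicate 1. Its Wnt4+/CreGFP change was 0.78 ± 0.35 (adjusted p = 0.141), and was called without Nes-Cre Wt1co/co replicate 1 (0.79). Col17a1 was detected on 1 of the 3 Wnt4+/CreGFP control arrays. With the background inferred by neqc, the Pax8+/Cre change was 0.27 and no longer called. The Nes-Cre call was kept with neqc but lost with neqc and without replicate 1. Among all alternatives the lowest Nes-Cre change of Col17a1 was 0.077. The lowest value of a detected gene was 4.65 to 5.02 on the arrays, near the controls of Col17a1. Col15a1, Col18a1 and Col25a1 had log2 changes between -0.44 and 0.35 and were not called.

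Replicate 1 of the Nes-Cre mutant was more than 1 log2 unit above the mean of its mates for 21 of the 52 genes, where 7.91% of all genes tested were, and more than 1 below for 4, where 7.7% were. Itga5, the fibronectin receptor chain, had the largest SD in this group, 1.98. The median SD of the 52 genes was 0.57 in Nes-Cre Wt1co/co kidneys and 0.13 to 0.18 in the other 7 groups. The stroma markers, 8 genes, summed to 20978 in replicate 1, 12070 and 13285 in replicates 2 and 3, and 9218 to 10435 in Wt1co/co kidneys, and 4 of the 8 were higher in the Nes-Cre mutant with and without replicate 1 (beside 11.7% and 13.6% of all genes). The stroma markers summed to 11938 to 14383 in the Wnt4+/CreGFP mutant against 9430 to 9866 in its controls. Of the 8, 1 was called higher there, and 6 without Nes-Cre Wt1co/co replicate 1 (beside 7.05% and 14% of all genes). In the Pax8+/Cre mutant these counts were 0 and 1 (beside 1.76% and 5.31%). In the Wnt4+/CreGFP mutant the smooth muscle markers summed to 14603 in replicate 1 against 7954 and 8852 in its mates and 7052 to 7636 in its controls. The part of these markers in the changes of the matrix genes was not tested.

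**Figure D3:**
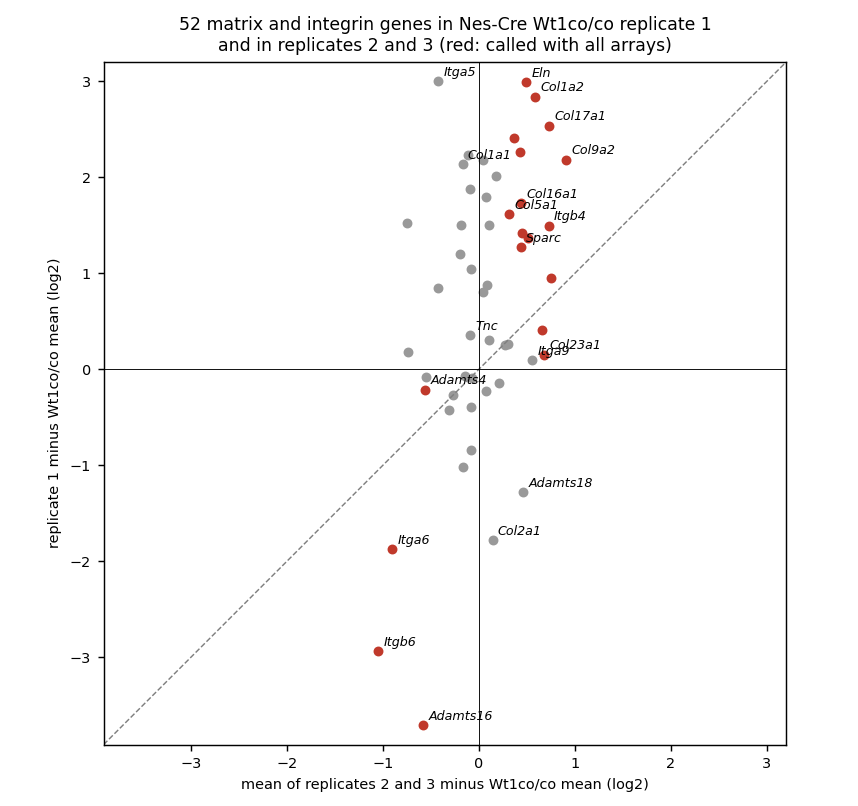
Log2 difference from the Wt1co/co mean of Nes-Cre Wt1co/co replicate 1 (vertical axis) and of the mean of replicates 2 and 3 (horizontal axis) for the 52 genes, with the dashed line of equality and genes called with all arrays in red. Genes such as Eln, Col1a2 and Itga5 lie far above the line, Itgb6, Adamts16 and Itga6 lie below 0 on both axes, and Col23a1 lies below the line of equality.

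Of 9 tested fibrillar collagens, 2 were higher in the Nes-Cre mutant, 1 in the Wnt4+/CreGFP mutant and none in the Pax8+/Cre mutant, and none was lower. Without Nes-Cre Wt1co/co replicate 1 these counts were 0, 3 (Col2a1, Col3a1 and Col5a1) and 1 (Col2a1). In the same order, 11.7%, 7.05% and 1.76% of all genes were called higher with all arrays, and 13.6%, 14% and 5.31% without that replicate. Col1a2, a chain of collagen I, had log2 intensities of 10.33, 7.84 and 8.29 in the Nes-Cre mutant against 7.76, 7.42 and 7.28 in Wt1co/co kidneys. The groups did not overlap, and replicate 1 was far above its mates. It rose by 1.33 ± 0.41 (adjusted p = 0.0228), which was 0.58 and not called without replicate 1, and the call was also lost without Wt1co/co replicate 2 (1.30) or 3 (1.23). Against Nes-Cre kidneys the change of Col1a2 was 0.42 and not called, and it was -0.33 when replicate 1 was also left out. Col5a1, a chain of collagen V (12.51, 11.02 and 11.41 against 10.76, 11.06 and 10.87), overlapped its controls and rose by 0.75 ± 0.23 (adjusted p = 0.0213), which was 0.32 and not called without replicate 1. Col2a1 encodes the collagen of cartilage. In the Wnt4+/CreGFP mutant it read 8.90, 8.68 and 8.39 against 7.61, 7.61 and 7.63, without overlap. It rose 2.06-fold there (log2 change 1.04 ± 0.31, adjusted p = 0.0292), and the call was lost when any 1 of these 6 arrays but Wnt4+/CreGFP Wt1co/co replicate 3 was left out (0.92 to 1.05). In the Nes-Cre mutant Col2a1 read 5.71 in replicate 1 against 7.52 and 7.74 in its mates, and its change of -0.50 ± 0.31 was not called (0.14 without replicate 1). Of 9 markers of cartilage and bone, 8 were detected on no array of either Wnt4+/CreGFP group, Acan and Matn1 among them. At most 1 of the 2 tested was therefore detected there. Of these 2, 1 was called higher in each of the 3 mutants, beside 11.7%, 7.05% and 1.76% of all genes. The part of the cartilage and bone markers in the change of Col2a1 was not tested. Col1a1 and Col3a1 had log2 changes of 0.60 and 0.67 in the Nes-Cre mutant, -0.17 and -0.11 without replicate 1, and were not called.

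Of 4 tested fibril-associated collagens, Col9a2 and Col16a1 were higher in the Nes-Cre mutant with and without replicate 1, and none was called in the other mutants with all arrays. Among all genes tested, 11.7% were called higher in the Nes-Cre mutant, and 13.6% without replicate 1. Col9a2, a chain of collagen IX that decorates fibrils, read 8.57, 7.37 and 7.20 against 6.76, 6.09 and 6.29 on the log2 scale. All 3 mutant arrays lay above the controls. It rose 2.51-fold (1.33 ± 0.29, adjusted p = 0.00257), was 0.91 without replicate 1 and remained called when any 1 of the 6 arrays was left out. Its changes in the other mutants were 0.49 and 0.43 (adjusted p = 0.270 and 0.475). Col16a1 read 11.87, 10.57 and 10.57 against 10.26, 10.15 and 10.00, without overlap, and rose by 0.87 ± 0.23 (adjusted p = 0.00936), or 0.44 without replicate 1. In wild-type and Nes-Cre kidneys Col16a1 had means of 10.70 and 10.64, above Wt1co/co kidneys, and against Nes-Cre kidneys its change was 0.37 and not called. Col12a1 and Col14a1 were not called. Of the 4 tested network and beaded collagens, Col6a1, a chain of collagen VI, was higher in the Nes-Cre mutant. It read 12.36, 10.39 and 10.66 against 10.34, 9.94 and 10.02, without overlap, and rose by 1.04 ± 0.31 (adjusted p = 0.0204), or 0.43 without replicate 1. The call was lost without Wt1co/co replicate 2 (0.96) or 3 (1.00). Its partner chain Col6a2 was not called at 0.76 (0.05 without replicate 1), and Col8a2 was at -0.01, which became -0.43 and called lower without replicate 1.

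Both tested elastic fibre genes were higher in the Nes-Cre mutant, as were 11.7% of all genes tested, and neither was called in another mutant. Eln, which encodes elastin, read 12.40, 9.74 and 10.06 on the log2 scale against 9.52, 9.10 and 9.60 in Wt1co/co kidneys. Fbn1, which encodes the microfibril protein fibrillin 1, read 10.11, 9.23 and 9.28 against 8.58, 9.05 and 8.60. Replicate 1 was the highest array for each, and neither gene overlapped its controls. Eln rose by 1.32 ± 0.41 (adjusted p = 0.0251) and by 0.49 without replicate 1, and lost its call without Wt1co/co replicate 1 (1.38) or 2 (1.17). Fbn1 rose by 0.80 ± 0.20 (adjusted p = 0.00651) and by 0.52 without replicate 1. Fbn1 had means of 9.16 and 9.25 in wild-type and Nes-Cre kidneys, and against Nes-Cre kidneys its change was 0.30 and not called. Elsewhere the log2 changes were -0.35 (Wnt4+/CreGFP) and -0.14 (Pax8+/Cre) for Eln, and 0.24 and -0.04 for Fbn1. Of the 5 tested adhesive and matricellular genes, Sparc and Thbs3 were higher in the Nes-Cre mutant, also without replicate 1. They, with Col5a1, were named after their values were seen, since they complete the 15 genes that were higher. Sparc, which encodes a collagen-binding glycoprotein, read 13.50, 12.51 and 12.83 against 12.16, 12.08 and 12.45 and rose by 0.71 ± 0.17 (adjusted p = 0.00439), or 0.43 without replicate 1. Thbs3, a thrombospondin gene, rose by 0.78 ± 0.20 (adjusted p = 0.00839), or 0.46. Thbs1, Thbs2 and Tnc were not called in any mutant with all arrays, and Postn and Thbs4 were detected on no array.

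**Figure D4:**
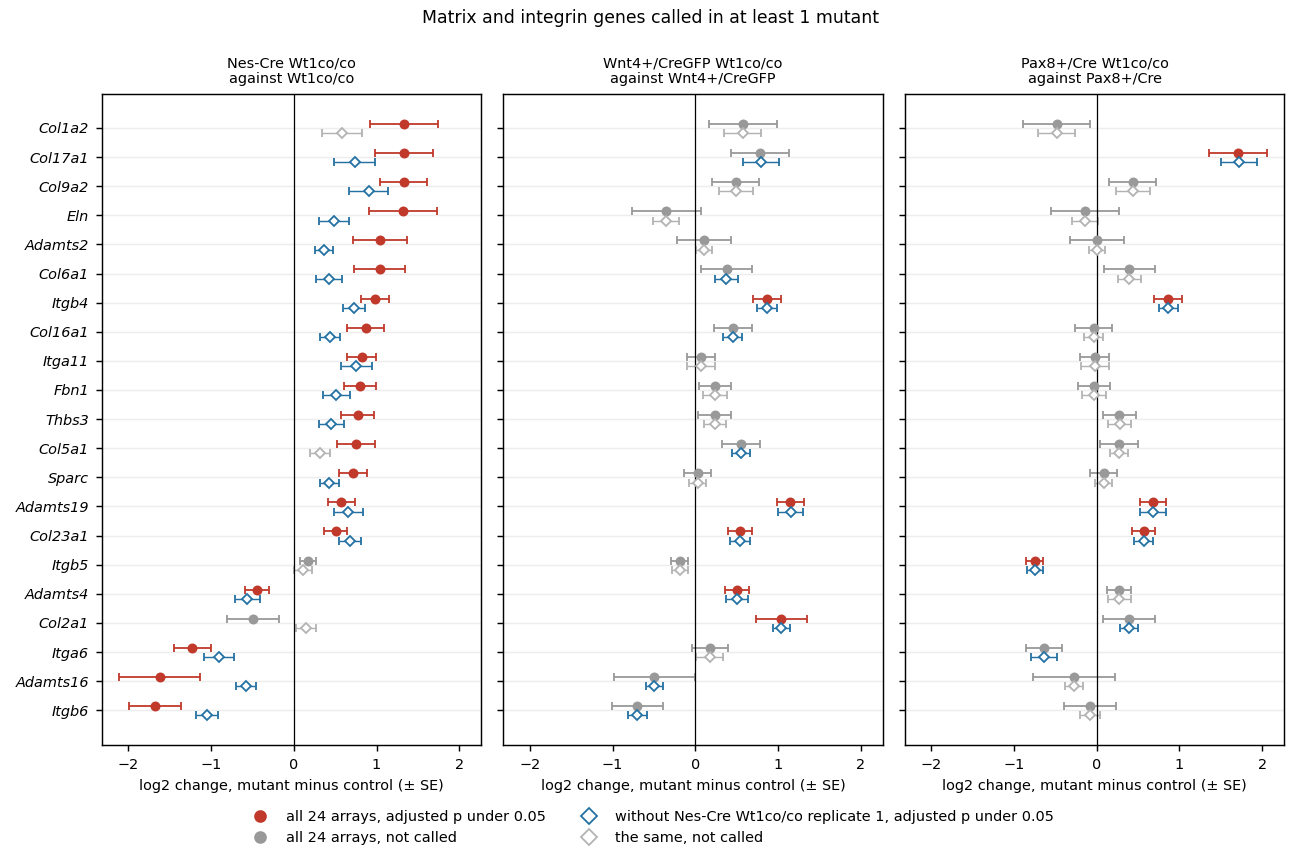
Log2 change with standard error (horizontal axis) of the 21 genes called in at least 1 mutant (vertical axis, ordered by the change in the Nes-Cre mutant), one panel per mutant, with circles for all 24 arrays and diamonds without Nes-Cre Wt1co/co replicate 1, coloured where the adjusted p is under 0.05. In the Nes-Cre panel the diamonds of Col1a2, Eln, Adamts2, Col6a1 and Adamts16 lie much closer to 0 than the circles, while those of Itgb4, Itga11, Col23a1 and Adamts19 lie close to them.

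Of the 8 tested ADAMTS proteases, 2 were higher and 2 lower in the Nes-Cre mutant (beside 11.7% and 14.1% of all genes), 2 higher in the Wnt4+/CreGFP mutant (beside 7.05%) and 1 higher in the Pax8+/Cre mutant (beside 1.76%). Without Nes-Cre Wt1co/co replicate 1 there were 4 higher and 1 lower in the Wnt4+/CreGFP mutant (beside 14% and 12.6% of all genes), with Adamts1 (0.48) and Adamts18 (0.73) gained, and 2 higher in the Pax8+/Cre mutant (beside 5.31%), with Adamts1 (0.55) gained. Adamts2, which trims the amino end of fibrillar procollagens, had log2 intensities of 10.40, 8.14 and 8.57 in the Nes-Cre mutant against 7.96, 8.01 and 8.01. The groups did not overlap, and replicate 1 was far above its mates. It rose by 1.04 ± 0.33 (adjusted p = 0.0250) and by 0.36 without replicate 1, and lost its call without any 1 of the Wt1co/co arrays (1.03 to 1.05). Adamts16, another secreted protease of the family, read 4.46, 7.61 and 7.56 against 8.27, 8.12 and 8.10, and was detected on 2 of the 3 mutant arrays. Replicate 1 was far below the other arrays, and no mutant array reached the controls. It fell by 1.62 ± 0.49 (adjusted p = 0.0212) and by 0.58 without replicate 1, and lost its call without Wt1co/co replicate 1 (-1.57). Against Nes-Cre kidneys the change of Adamts16 was -1.20 (-0.16 without replicate 1) and not called. With array sets cancelled, as described with the choice of control, it was -1.57 and not called, and -0.53 and called without replicate 1. The log2 changes of Adamts16 were -0.49 (Wnt4+/CreGFP) and -0.28 (Pax8+/Cre), with all 3 mutant arrays below the controls each time, and the former was called without Nes-Cre Wt1co/co replicate 1 but not with all arrays.

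Adamts4, an aggrecan-cleaving protease, was called in opposite directions in 2 mutants. In the Nes-Cre mutant it read 6.94, 6.55 and 6.63 on the log2 scale against 7.05, 7.27 and 7.13, and in the Wnt4+/CreGFP mutant 7.88, 7.28 and 7.58 against 6.96, 7.24 and 7.03. In neither comparison did the groups overlap. Adamts4 fell by 0.44 ± 0.15 (adjusted p = 0.0320) in the former and rose by 0.50 ± 0.15 (adjusted p = 0.0248) in the latter. The difference of these changes was -0.95 ± 0.21 (adjusted p = 0.0194), and -1.06 without Nes-Cre Wt1co/co replicate 1. In the Pax8+/Cre mutant Adamts4 read 7.71, 7.51 and 7.34 against 7.29, 7.20 and 7.25, a change of 0.27 ± 0.15 (adjusted p = 0.352). Each single change lost its call when some arrays were left out, -0.37 to -0.50 without any 1 Wt1co/co array or Nes-Cre Wt1co/co replicate 2 or 3, and 0.35 to 0.51 without Wnt4+/CreGFP replicate 1 or 3 or its mutant's replicate 1 or 3. The difference lost its call without Wt1co/co replicate 2 (-0.88), Wnt4+/CreGFP replicate 1 (-0.89) or Wnt4+/CreGFP Wt1co/co replicate 1 (-0.80).

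Of the 13 tested integrin chains that bind laminin, collagen or RGD ligands, 2 were higher and 2 lower in the Nes-Cre mutant, with 2 higher and 4 lower without replicate 1. Among all genes tested, 11.7% were called higher and 14.1% lower, or 13.6% and 13.3% without replicate 1. The counts of 2 among 13 lie near these shares. Itga6, the alpha 6 chain that pairs with beta 4 or beta 1 on laminin, read 5.79, 6.65 and 6.87 on the log2 scale against 7.85, 7.70 and 7.44. Itgb6, the epithelial beta 6 chain that pairs with alpha v, read 7.09, 9.09 and 8.86 against 9.93, 10.03 and 10.12. All mutant arrays lay below the controls for each gene, and replicate 1 was the lowest. Itga6 fell by 1.23 ± 0.22 (2.34-fold lower, adjusted p = 0.000652) and by 0.90 without replicate 1. Itgb6 fell by 1.68 ± 0.31 (3.20-fold lower, adjusted p = 0.000880) and by 1.05 without replicate 1. Both remained called when any 1 of the 6 arrays was left out. With neqc and without replicate 1, Itga6 lost its call and Itgb6 kept it. Itgb4, whose product pairs with that of Itga6, rose in the same mutant. Itga11, a collagen-binding alpha chain of mesenchymal cells, read 7.07, 6.86 and 6.88 against 6.10, 6.51 and 5.74 and rose by 0.82 ± 0.17 (adjusted p = 0.00209), or 0.76 without replicate 1, although only 1 of the 3 control arrays detected it. Itga1 and Itga3 were called lower without replicate 1 (-0.75 and -0.74) but not with it. For Itga1, a collagen receptor chain, replicate 1 read 9.68 against 7.50 and 7.34 in its mates and 8.13, 8.19 and 8.17 in the controls. For Itga3, a laminin receptor chain, it read 8.92 against 8.07 and 7.92, and 8.83, 8.81 and 8.57 in the controls.

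Integrin genes differed between mutants. Itga6 read 8.60, 8.07 and 8.57 in the Wnt4+/CreGFP mutant against 8.08, 8.45 and 8.18 on the log2 scale, and the groups overlapped, with a change of 0.18 ± 0.22 (adjusted p = 0.646). The change of Itga6 in the Nes-Cre mutant differed from that in the Wnt4+/CreGFP mutant by -1.40 ± 0.31 (adjusted p = 0.0202), and by -1.08 without replicate 1. This call was lost without Wt1co/co replicate 1 (-1.30) or 2 (-1.38), Wnt4+/CreGFP replicate 1 (-1.32) or its mutant's replicate 1 (-1.31) or 3 (-1.33). In the Pax8+/Cre mutant Itga6 read 8.51, 8.15 and 8.40 against 8.69, 9.18 and 9.10, all below the controls, and its change of -0.64 ± 0.22 (adjusted p = 0.111) was called without Nes-Cre Wt1co/co replicate 1 but not with it. Itgb5 encodes the beta 5 chain, which pairs with alpha v on vitronectin. In the Pax8+/Cre mutant it read 8.95, 8.89 and 8.78 against 9.54, 9.63 and 9.70, and in the Nes-Cre mutant 10.22, 10.00 and 10.05 against 9.87, 10.04 and 9.84. It was below every other array of the series in the Pax8+/Cre mutant and overlapped its controls in the Nes-Cre mutant. Itgb5 fell by 0.75 ± 0.10 in the Pax8+/Cre mutant (1.68-fold lower, adjusted p = 0.000101) and its Nes-Cre change was 0.17 ± 0.10 (adjusted p = 0.223). The difference of these changes was 0.92 ± 0.14 (adjusted p = 0.00217), or 0.86 without replicate 1, and it remained called when any 1 array of these 4 groups was left out. The Wnt4+/CreGFP change of Itgb5 was -0.19 ± 0.10 (adjusted p = 0.224). Between the Pax8+/Cre and Wnt4+/CreGFP mutants, limma called a different change for 0 of the 52 genes, beside 0.26% of all genes tested (2 at an unadjusted p under 0.05, and 0 with neqc, beside 0.463%). The other pairs had 2 genes (Nes-Cre and Wnt4+/CreGFP, beside 2.61% of all genes) and 1 gene (Nes-Cre and Pax8+/Cre, beside 2.04%), all named above. Without replicate 1 of the Nes-Cre mutant these counts were 3, 4 and 5, beside 2.4%, 4.94% and 4.31% of all genes.

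Itgb6 was not called in the other mutants with all arrays. It read 8.95, 8.99 and 9.24 against 9.61, 9.92 and 9.75 in the Wnt4+/CreGFP mutant, without overlap, a change of -0.70 ± 0.31 (adjusted p = 0.138) that was called without Nes-Cre Wt1co/co replicate 1. In the Pax8+/Cre mutant it read 9.83, 9.80 and 9.53 against 9.67, 9.99 and 9.75, a change of -0.08 ± 0.31. Itga9 had the largest change in the Wnt4+/CreGFP mutant, 1.16 ± 0.56 (adjusted p = 0.173), but was not called, and was detected on no array of the control. Its log2 intensities were 6.05, 7.77 and 5.80 there, with replicate 2 far above its mates, against 4.99, 5.54 and 5.62 in the control. Its SD reached 1.46 within Wt1co/co kidneys, the highest of the 52 genes in that group. The integrins of leukocytes and platelets hold 8 genes, of which 1 was tested and 6 were detected on no array, Itgam and Itgb2 among them. In the same kidneys 7 of 8 tested macrophage and leukocyte markers were higher in the Nes-Cre mutant, as were 11.7% of all genes tested. The intensity summed over these markers was 3605 to 4867 against 1969 to 2140 in Wt1co/co kidneys. Itga2b, the platelet alpha IIb chain, had a Nes-Cre change of 0.29 (adjusted p = 0.151). Itgb1bp1, which encodes a cytoplasmic partner of beta 1 and not an integrin chain, had one of -0.19 (adjusted p = 0.353).

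Partners of these genes in matrix assembly were followed in lists chosen with earlier results known, and their counts stand beside the shares of all genes called, which were 11.7% higher and 14.1% lower in the Nes-Cre mutant (13.6% and 13.3% without replicate 1), 7.05% and 8.5% in the Wnt4+/CreGFP mutant, and 1.76% and 3.01% in the Pax8+/Cre mutant. Of 14 tested partners of elastic fibres and microfibrils, 8 were higher and none lower in the Nes-Cre mutant (median log2 change 0.59), and 6 were higher without replicate 1. Of the same 14, 3 were higher in the Wnt4+/CreGFP mutant and 1 in the Pax8+/Cre mutant, which was Fbln1. Fbln1, which encodes fibulin 1, rose by 0.97 (Nes-Cre, adjusted p = 7.26e-05), 0.62 (Wnt4+/CreGFP, adjusted p = 0.00383) and 0.56 (Pax8+/Cre, adjusted p = 0.0195). Of 12 tested matrix metalloproteinases and their inhibitors, 5 were higher and none lower in the Nes-Cre mutant, 2 higher and 1 lower in the Wnt4+/CreGFP mutant and none in the Pax8+/Cre mutant. Without Nes-Cre Wt1co/co replicate 1 these became 4 higher (Nes-Cre), 5 higher and 2 lower (Wnt4+/CreGFP) and 1 higher, Timp1 (Pax8+/Cre). Without that replicate the shares of all genes called higher and lower were 14% and 12.6% (Wnt4+/CreGFP) and 5.31% and 6.43% (Pax8+/Cre), for every list. Mmp14, a membrane-bound collagenase, rose by 1.02 and 0.61 in the Nes-Cre and Wnt4+/CreGFP mutants, and Timp1, an inhibitor of metalloproteinases, by 0.97 and 0.44. Of 23 tested genes of collagen folding, crosslinking and trimming, 6 were higher and 2 lower in the Nes-Cre mutant (3 and 1 without replicate 1), 2 higher and 2 lower in the Wnt4+/CreGFP mutant (3 and 3) and none in the Pax8+/Cre mutant (0 and 1). Bmp1, which trims the carboxyl end of procollagens, rose by 0.80 and 0.60, and Pepd, which recycles proline from collagen fragments, fell by 0.71 and 0.86 in the first pair of mutants. Of 20 tested integrin adaptors and ligands, 3 were higher and 2 lower in the Nes-Cre mutant (1 and 2 without replicate 1), 2 higher and 0 lower in the Wnt4+/CreGFP mutant (3 and 1) and 0 in the Pax8+/Cre mutant (1 and 2). Npnt, which encodes nephronectin, an integrin ligand of the kidney, fell by 1.02 in the Nes-Cre mutant, and by 0.73 without replicate 1. Of 13 tested ADAMTS-like and small matrix proteins, 4 were higher and 1 lower in the Nes-Cre mutant (1 and 1 without replicate 1), 1 higher in the Wnt4+/CreGFP mutant (1 and 1) and 0 in the Pax8+/Cre mutant (0 and 2). Tgfbi, a collagen-binding protein of the matrix, rose by 0.62 and 0.49 in the Nes-Cre and Wnt4+/CreGFP mutants.

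The choice of control moved the Nes-Cre counts. Against kidneys carrying Nes-Cre alone, which lie on another set of arrays, 20 of the 52 genes were higher and 8 lower, where 20.1% and 19% of all genes were. With array sets cancelled, which subtracts the difference between Nes-Cre and wild-type kidneys from that between the mutant and Wt1co/co kidneys, 9 were higher and 2 lower, beside 7.38% and 8.81%. The median standard error of the 52 genes was 0.305 with array sets cancelled and 0.216 against either single control. Their median log2 change was 0.44 with array sets cancelled and 0.32 against Wt1co/co kidneys. The lower counts with array sets cancelled thus come with a less precise estimate and do not show smaller changes. Without replicate 1 these counts were 18 and 10 (21.6% and 18.3% of all genes), and 12 and 6 (11.8% and 11.1%). Under each of the 3 controls, 6 genes were called higher (Adamts19, Col17a1, Col9a2, Itga11, Itgb4 and Thbs3) and 2 lower (Itga6 and Itgb6). Without replicate 1, Itga11 lost its call against Nes-Cre kidneys (0.48), and 8 genes were called higher (Adamts19, Adamts2, Col17a1, Col23a1, Col9a2, Eln, Itgb4 and Thbs3) and 4 lower (Itga1, Itga3, Itga6 and Itgb6) under each control. With neqc and without replicate 1, Col17a1, Eln and Itga6 lost their calls against Wt1co/co kidneys. With all arrays, Adamts2, Adamts4, Col6a1, Eln and Sparc were called against Nes-Cre kidneys but not with array sets cancelled, and Col5a1 and Col23a1 the other way round. Between the Wt1co/co and Nes-Cre controls, the genotype and the set of arrays cannot be told apart.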

How the data were processed

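Total RNA of E18.5 kidneys (24 samples, 3 in each of 8 groups) was extracted with the RNeasy micro kit, amplified with the Illumina TotalPrep kit and hybridised to MouseRef-8 v2 BeadChips. The authors deposited bead intensity values without background subtraction or normalization, 1 value per gene symbol, with a detection p-value per array. The sources used here do not say how a gene's probes were merged. They also deposited a GeneSpring ratio of each array to the median of 3 control arrays of its set, used here as an alternative and to find the sets of arrays. Replicate numbers 1 and 3 are exchanged between the ratio and the intensity values (16 arrays match another number best), and the text follows the intensities.

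The background mean and SD of each array were read from intensities at detection p near 0.5 and 0.159, the background was corrected with normexp (offset 16), and arrays were quantile normalised and log2 transformed. Genes detected at p under 0.01 on at least 3 arrays were fitted in 1 limma model of 8 groups (16 residual degrees of freedom, R 4.3.3, limma 3.58.1), with Benjamini-Hochberg adjustment over 10371 genes per comparison and calls at an adjusted p under 0.05. Depth does not apply to arrays, where 3 per group limit the precision. The model was tested on simulated data of 10371 genes, where it recovered 89.6% (Nes-Cre), 83.6% (Wnt4+/CreGFP) and 91% (Pax8+/Cre) of genes changed by 1 log2 unit, but 46.3%, 38.8% and 40.3% of those changed by 0.5. The simulated noise of a gene had the same SD on every array, without an array that stands apart. These shares therefore do not describe the real Nes-Cre comparison, whose mutant arrays spread more widely.

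Each mutant was compared with the control of its own set of arrays, while the methods compare the Nes-Cre mutant with Nes-Cre kidneys, which was run as an alternative. The other alternatives were neqc, no background correction, an offset of 50, scaling to the 75th percentile, the ratio values, no detection filter, detection on at least 12 arrays, a replicate block, array weights, a variance trend with a robust prior, only the arrays compared, and leaving out each array. Settings that combine neqc or another control with leaving out Nes-Cre Wt1co/co replicate 1 were chosen after seeing the data. Named genes were, per comparison, up to 10 higher and 10 lower called genes with the largest change, those called in all 3 or in opposite directions, and up to 5 with a called difference between mutants, with the largest change of a role group without calls. Genes named besides these were chosen after their values were seen. The genes followed, the lists and the markers were chosen with earlier results of these data known. For 9 of the 82 genes an intensity over 5 background SD stood beside a detection p of 0.01 or more. Among them were Itgb3bp (all 24 arrays), Itga11 (9), Col18a1 (6), Col24a1 (6) and Col7a1 (5), so a missing detection there does not mark a low intensity. Itgb3bp counts among the genes detected on no array, and Col7a1 lies just outside the limit of detection, so neither was tested. Samples are described as biological triplicates and nothing says whether embryos shared a litter. The p-values rest on the spread between these samples pooled over the groups. For genes on which replicate 1 of the Nes-Cre mutant stood apart, that spread is smaller than the mutant's own.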

Additional observations from a re-analysis of the deposited data

Results flagged for a closer look

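The changes of 3 integrin and protease genes differed between mutants by a test of the difference itself in limma, adjusted over all genes tested. Itga6, the laminin receptor chain, had log2 changes that differed by -1.40 (the Nes-Cre mutant minus the Wnt4+/CreGFP mutant, standard error 0.31, adjusted p = 0.0202). Adamts4, the aggrecan-cleaving protease, differed between the same mutants by -0.95 (standard error 0.21, adjusted p = 0.0194). Itgb5, the vitronectin receptor chain, differed between the Nes-Cre and Pax8+/Cre mutants by 0.92 (standard error 0.14, adjusted p = 0.00217). The call of the difference was lost in 9 of 24 alternatives for Itga6, 7 for Adamts4 and 1, the ratio values, for Itgb5. For Itga6 and Adamts4 these include neqc, the ratio values and only the arrays compared. The fall of Adamts4 in the Nes-Cre mutant lost its call in 11 of 22 alternatives. Single arrays were not tested by their gap to the other arrays in these groups of 3.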

How the results depend on the processing

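Of 29 named results, 27 kept their direction under every alternative run and 1, Itgb4 in the Pax8+/Cre mutant, was called under all of them. Col16a1 (-0.064) and Col1a2 (-0.33) turned lower in the Nes-Cre mutant against Nes-Cre kidneys without array 1 of that mutant. Leaving out 1 array each, the Nes-Cre mutant had 11 to 20 genes higher and 2 to 7 lower, the Wnt4+/CreGFP mutant 2 to 12 and 0 to 3, and the Pax8+/Cre mutant 2 to 6 and 1 to 2. Differences between mutants numbered 0 to 8 (Nes-Cre and Wnt4+/CreGFP), 1 to 11 (Nes-Cre and Pax8+/Cre) and 0 to 3 (Wnt4+/CreGFP and Pax8+/Cre). With neqc there were 1 lower gene in the Wnt4+/CreGFP and 2 in the Pax8+/Cre mutant, and 1 and 2 differences of the Nes-Cre mutant from these. Without background correction the Pax8+/Cre mutant had 2 lower genes and 2 differences from the Nes-Cre mutant, and an offset of 50 gave 2 such differences. Scaling to the 75th percentile gave 8 higher genes in the Wnt4+/CreGFP mutant, and 1 and 3 differences of the Nes-Cre mutant from the Wnt4+/CreGFP and Pax8+/Cre mutants. From the authors' ratio values, the Nes-Cre mutant had 4 higher and 9 lower genes, the Wnt4+/CreGFP mutant 0 and 1, the Pax8+/Cre mutant 0 lower, and the differences were 0 (Nes-Cre and Wnt4+/CreGFP) and 7 (Nes-Cre and Pax8+/Cre). Array weights gave 7 lower genes in the Nes-Cre mutant, 14 higher and 3 lower in the Wnt4+/CreGFP mutant, 10 and 4 in the Pax8+/Cre mutant, and 4, 7 and 7 differences. With only the arrays compared, counts were 0 and 0 (Nes-Cre), 8 and 4 (Wnt4+/CreGFP) and 7 and 2 (Pax8+/Cre), with 0 (Nes-Cre and Wnt4+/CreGFP) and 2 (Wnt4+/CreGFP and Pax8+/Cre) differences. Against Nes-Cre kidneys 8 genes were lower in the Nes-Cre mutant, or 10 without array 1, and with array sets cancelled 9 were higher and 2 lower. With neqc and without that array, the Wnt4+/CreGFP mutant had 12 higher and 3 lower genes and the Pax8+/Cre mutant 3 lower, with 6 (Wnt4+/CreGFP and Pax8+/Cre) and 4 (Nes-Cre and Pax8+/Cre) differences. Shares of all genes called are not given beside most of these counts, which show only how far the calls moved. Except where fewer arrays were fitted, the cause was not tested. The median change of all genes was 0.14, 0.15 and 0.01 with the 75th percentile and -0.19, -0.13 and 0.13 with the ratio values, in the order Nes-Cre, Wnt4+/CreGFP and Pax8+/Cre.

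The labels number the replicates alike in every group. Same-numbered deviations correlated at -0.198 to 0.073 over 9 pairs, 0 of them over 0.1, and the main model used no pairing. Litters or batches shared in another order than the number would not show in these correlations. With the replicate number as a block the counts were 15 higher and 4 lower (Nes-Cre), 5 and 0 (Wnt4+/CreGFP), and 4 and 1 (Pax8+/Cre), and the block moved no count. Genes near background (Col11a1, Col25a1, Itga2 and Itga7 among them) were detected on 3 to 7 arrays, so most of their values lie at background.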
